A study of Homo sapiens with 4 samples.

Results

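The enzymes that write, copy and remove DNA methylation and the core of Polycomb repressive complex 2 (PRC2) were examined in HaCaT cells, an established human keratinocyte line, after knockdown of ALKBH5. These are 10 genes of the 58735 listed: DNMT1, DNMT3A, DNMT3B and UHRF1, the TET genes TET1, TET2 and TET3, and the PRC2 genes EZH2, EED and SUZ12. A gene was included when its name in the deposited tables was one of these symbols, and each symbol matched 1 gene. Poly-A RNA was sequenced from cells transfected with normal control siRNA (siControl, 2 libraries) or with ALKBH5 knockdown siRNA (siALKBH5, 2 libraries). All cells were labelled WT, grew in DMEM with fetal bovine serum, and received 200 pmol of siRNA with Lipofectamine in six-well plates. The labels do not say which ALKBH5 siRNA was used or how long after transfection RNA was taken. Whether the 2 libraries of a group came from separate cultures is not stated either, so the p-values below measure only the spread between these libraries, which may be technical.

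DNA methylation at CpG sites is laid down by the de novo methyltransferases DNMT3A and DNMT3B and copied onto the new strand after replication by DNMT1, which UHRF1 brings to hemimethylated DNA. TET enzymes oxidise 5-methylcytosine and so begin its removal. PRC2 methylates lysine 27 of histone H3 through its catalytic subunit EZH2 and needs EED and SUZ12 for its activity. In the basal layer of the epidermis, DNMT1, UHRF1 and EZH2 are known for keeping progenitor cells from differentiating.

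The libraries held between 16017502 and 18837807 counts on genes, and the TMM scaling factors lay between 0.992 and 1.01. KRT5, KRT14 and TP63, which mark basal keratinocytes, were abundant in all 4 libraries. Of 8 fibroblast markers, COL1A2, PDGFRA, PDGFRB and THY1 were at 0 counts in all libraries, and the list summed to 21.9 and 22.8 CPM (counts scaled to a common library size) in siControl and 18.7 and 19.1 CPM in siALKBH5. COL1A1 had between 267 and 309 counts in 3 libraries and 310 in siALKBH5 replicate 1, and was not called. DCN, with 52 and 71 counts in siControl against 24 and 29 in siALKBH5, and LUM, with 33 and 31 against 15 and 16, were called lower. The part of these markers in the results below was not tested. ALKBH5, the RNA demethylase that was targeted, had 1512 and 1576 counts in siControl against 956 and 816 in siALKBH5. Of the exonic bases of ALKBH5, 357 (11.2%) are shared with AC087164.1 on the opposite strand, and whether counting used strand is not stated. The log2 fold change of ALKBH5 was -0.85 (SE 0.053, adjusted p = 6.45e-15 by edgeR's quasi-likelihood test with Benjamini-Hochberg adjustment). The test covered the 15075 genes with enough counts, and the threshold for a call was 0.05 on the adjusted p. In that test 36.6% of genes were called, 19.3% as higher and 17.3% as lower in siALKBH5.

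DNMT1, UHRF1 and EZH2 were higher after ALKBH5 knockdown, DNMT3A was lower, and DNMT3B, TET2, TET3, EED and SUZ12 did not pass the test. Thus 4 of the 9 tested genes were called, where 36.6% of all genes were. TET1 had too few counts to be tested. When a doubling or halving of the level, that is 1 on the log2 scale, was required as well, 0 of the 9 genes were called, against 2.92% of all genes tested. The median log2 fold change was 0.12 over the 9 genes and -0.0081 over all genes tested. In bulk RNA, fewer cells that express a gene and less RNA of it per cell cannot be told apart.

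**Figure D1:**
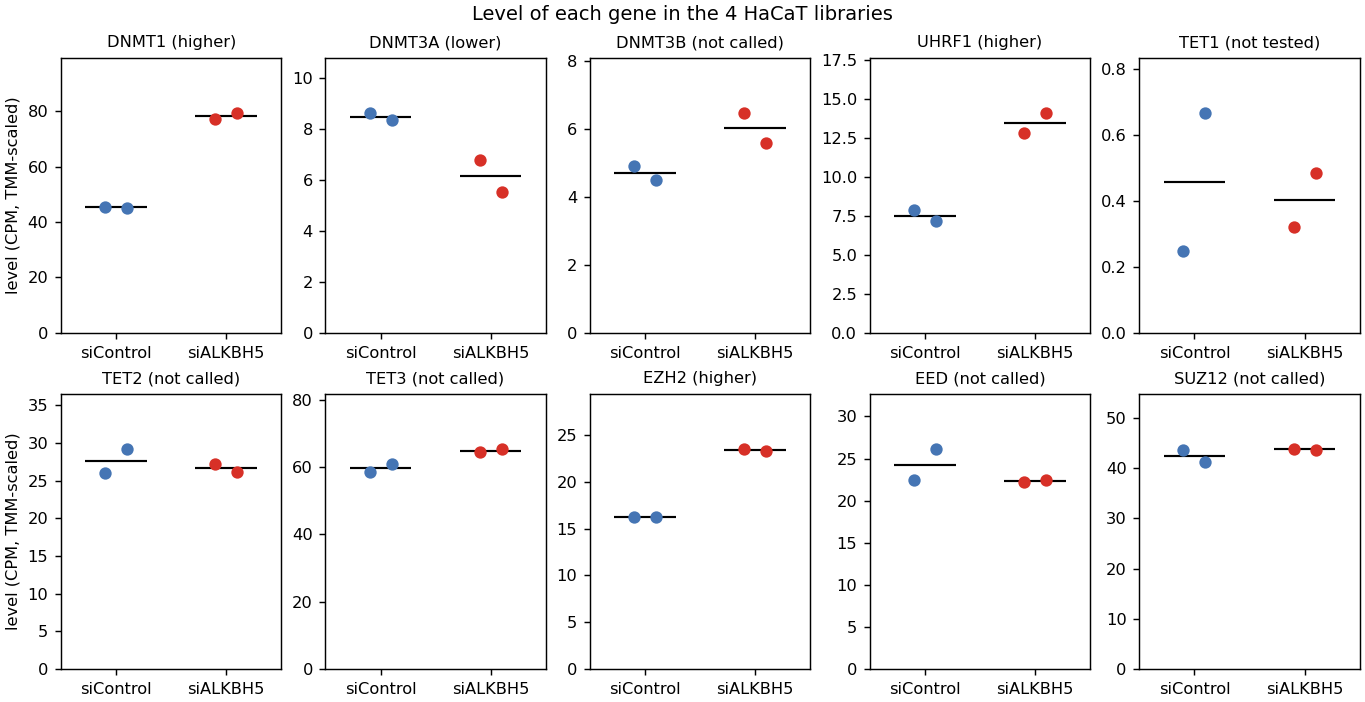
Level of each of the 10 genes in CPM (counts scaled to a common library size with TMM) in the 2 siControl libraries (blue) and the 2 siALKBH5 libraries (red), with 1 point per library and a line at the group mean. Both siALKBH5 points lie above both siControl points for DNMT1, UHRF1 and EZH2, which were called, and for DNMT3B, TET3 and SUZ12, which were not. They lie below them for DNMT3A, while those of TET1, TET2 and EED overlap with the control. A lack of overlap is thus not particular to the called genes, and its share among all genes is not given here.

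Several genes of this kind are known to be transcribed with the cell cycle, and their promoters are given before the values. RefSeq promoters of GRCh38.p14, from 250 bases before to 50 bases after each transcription start, were searched on both strands for the words TTTCCCGC, TTTCGCGC, TTTGCCGC and TTTGGCGC, which E2F factors of the G1/S transition are known to bind. Overlapping matches were counted separately. A match was present in 1164 of 35116 promoters (3.31%), in at least 1 promoter of 1090 of 27305 genes (3.99%), and in 11 of 17 G1/S genes with a listed promoter (64.7%). It was present in 4 of the 10 genes, namely DNMT1, UHRF1, EZH2 and SUZ12. The windows that hold the match are shown 5′ to 3′ on the strand of the gene, with the matched word in capitals. Among the windows shown, only those of UHRF1 and SUZ12 hold the same word, on opposite strands. The SUZ12 window lies wholly before the transcription start, and the others run from 100 bases before to 20 bases after it. The match began 2 bases before the transcription start in DNMT1, 14 bases before it in UHRF1, 1 base after the first transcribed base in EZH2 and 189 bases before the start in SUZ12.
DNMT1, chr19:10194934-10195053, minus strand: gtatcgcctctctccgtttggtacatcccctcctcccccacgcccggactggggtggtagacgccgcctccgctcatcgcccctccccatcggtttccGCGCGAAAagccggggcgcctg
UHRF1, chr19:4909401-4909520, plus strand: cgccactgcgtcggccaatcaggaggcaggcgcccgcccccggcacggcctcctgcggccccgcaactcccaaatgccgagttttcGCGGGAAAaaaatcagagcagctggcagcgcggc
EZH2, chr7:148884272-148884391, minus strand: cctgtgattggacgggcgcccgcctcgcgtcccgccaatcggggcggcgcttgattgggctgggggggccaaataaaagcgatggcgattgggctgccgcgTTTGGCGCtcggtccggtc
SUZ12, chr17:31936777-31936896, plus strand: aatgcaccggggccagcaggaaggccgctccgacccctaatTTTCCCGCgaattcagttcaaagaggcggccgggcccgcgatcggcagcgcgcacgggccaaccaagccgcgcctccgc
DNMT1 and SUZ12 had 1 listed promoter each. UHRF1 had 3, the second of which also held a match, and EZH2 had 2, with a match in the first. The letters were not found in the listed promoters of DNMT3A, DNMT3B, TET1, TET2, TET3 or EED, which says only that they are not in these windows. Of the 4 genes with a match, 3 were called higher in siALKBH5 and SUZ12 was not called, beside 19.3% higher among all genes tested. The share called among all genes with a match was not computed, and the part of these words in the changes was not tested. A match is a description of the sequence and not a site shown to be bound.

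DNMT1 (ENSG00000130816, chromosome 19 of GRCh38 from 10133345 to 10231286), the maintenance methyltransferase, had 735 and 810 counts in siControl against 1445 and 1306 in siALKBH5. Both siALKBH5 libraries lay above both siControl libraries. The level of DNMT1 rose from 45.3 ± 0.423 CPM (SD, n = 2) to 78.4 ± 1.41 CPM (SD, n = 2), which is 1.73-fold. This is a log2 fold change of 0.79 (SE 0.054, adjusted p = 8.79e-14 by edgeR's quasi-likelihood test with Benjamini-Hochberg adjustment) and ranks 604 of 15075 from the highest. Leaving out 1 library at a time gave values from 0.77 to 0.81. Of the exonic bases of DNMT1, 83 (0.847%) are shared with S1PR2 on the same strand.

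UHRF1 (ENSG00000276043, chromosome 19 from 4903080 to 4962154), the partner that recruits DNMT1, moved in the same direction as DNMT1. It had 127 and 129 counts in siControl against 239 and 232 in siALKBH5, so the groups did not overlap. UHRF1 rose 1.79-fold, from 7.53 ± 0.504 CPM (SD, n = 2) to 13.4 ± 0.920 CPM (SD, n = 2). The change on the log2 scale was 0.84 (SE 0.13, adjusted p = 5.02e-06 by edgeR's quasi-likelihood test with Benjamini-Hochberg adjustment), and from 0.77 to 0.91 when 1 library was left out. The ratio of DNMT1 to UHRF1 per length was 3.04 and 3.30 in siControl and 3.18 and 2.96 in siALKBH5, and the groups overlapped. The difference of this log2 ratio was -0.047 (exact two-sided permutation test, p = 0.667). With 2 libraries against 2 that test cannot give a p below 0.333.

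DNMT3A (ENSG00000119772, chromosome 2 from 25227855 to 25342590), a de novo methyltransferase, went the other way. It had 139 and 150 counts in siControl against 127 and 91 in siALKBH5. These correspond to 8.63 and 8.34 CPM in siControl and 6.80 and 5.53 CPM in siALKBH5, so that the siALKBH5 libraries lay under the lower siControl library and the mean was 72.7% of the control. On the log2 scale the change was -0.45 (SE 0.15, adjusted p = 0.0204 by edgeR's quasi-likelihood test with Benjamini-Hochberg adjustment). The call was lost with DESeq2 (log2 fold change -0.45, adjusted p = 0.125). It was also lost in edgeR without siControl replicate 1 (-0.43, adjusted p = 0.0718) and without siALKBH5 replicate 2 (-0.32, adjusted p = 0.196), and held without siControl replicate 2 (-0.48, adjusted p = 0.0426) and without siALKBH5 replicate 1 (-0.61, adjusted p = 0.00902).

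DNMT3B (ENSG00000088305, chromosome 20 from 32762385 to 32809356), the other de novo methyltransferase, was not called. Its counts were 79 and 81 in siControl and 121 and 92 in siALKBH5, or 4.90 and 4.50 CPM against 6.48 and 5.59 CPM. The log2 fold change of DNMT3B was 0.37 (SE 0.18, adjusted p = 0.106 by edgeR's quasi-likelihood test with Benjamini-Hochberg adjustment). The 95% interval of the log2 fold change, taken as 1.96 SE to either side, ran from 0.020 to 0.71. Unlike the adjusted p, such an interval does not allow for the number of genes tested. The per-length ratio of DNMT3B to DNMT3A was 1.48 and 1.40 in siControl and 2.47 and 2.62 in siALKBH5. The 2 groups of ratios did not overlap, with a log2 difference of 0.83 (exact two-sided permutation test, p = 0.333, the smallest this design allows).

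Among the catalytic methyltransferases, DNMT1 held the largest share of the summed per-length level in all 4 libraries. It made up 72.4% and 73.4% of the sum of DNMT1, DNMT3A and DNMT3B in siControl and 80.1% and 82.9% in siALKBH5. The share of DNMT3A was 11.2% and 11.1% in siControl and 5.74% and 4.71% in siALKBH5. That of DNMT3B was 16.5% and 15.5% in siControl and 14.2% and 12.4% in siALKBH5, although its own level was not lower. The summed level itself was 6.43 and 6.26 FPKM in siControl and 9.86 and 9.77 FPKM in siALKBH5, where FPKM is fragments per kilobase of gene length scaled to a common library size, recomputed from the counts.

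The TET genes showed no call in either direction. TET3 (ENSG00000187605, chromosome 2 from 73986404 to 74108176) had the highest per-length level of the 3, with 944 and 1098 counts in siControl against 1203 and 1076 in siALKBH5. These are 58.6 and 61.0 CPM against 64.4 and 65.4 CPM. The log2 fold change of TET3 was 0.12 (SE 0.054, adjusted p = 0.0894 by edgeR's quasi-likelihood test with Benjamini-Hochberg adjustment), with a 95% interval from 0.011 to 0.22. That interval does not allow for the number of genes tested either. TET2 (ENSG00000168769, chromosome 4 from 105145875 to 105279816) gave 419 and 525 counts in siControl against 509 and 430 in siALKBH5. Its levels of 26.0 and 29.2 CPM in siControl enclosed those of 27.3 and 26.1 CPM in siALKBH5. For TET2 the log2 fold change was -0.049 (SE 0.082, adjusted p = 0.686 by edgeR's quasi-likelihood test with Benjamini-Hochberg adjustment), with a 95% interval from -0.21 to 0.11. A change of TET2 within these bounds was not detectable at this depth, and with siControl replicate 2 left out the sign turned (0.038).

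TET1 (ENSG00000138336, chromosome 10 from 68560656 to 68694482) was close to the limit of detection. It had 4 and 12 counts in siControl against 6 and 8 in siALKBH5, at most 0.667 CPM, and did not pass the expression filter. Without the filter its log2 fold change was -0.21 (SE 0.65, adjusted p = 0.868 by edgeR's quasi-likelihood test with Benjamini-Hochberg adjustment). No direction could be read at these counts. TET3 made up 74.8% and 73.0% of the summed per-length TET level in siControl and 75.7% and 76.5% in siALKBH5. The ratio of TET3 to TET2 was 3.02 and 2.81 in siControl and 3.17 and 3.36 in siALKBH5, with a log2 difference of 0.16 (exact two-sided permutation test, p = 0.333, the smallest possible). For TET1 to TET2 the ratios overlapped between the groups, from 0.0169 to 0.0405 in siControl and from 0.0209 to 0.0330 in siALKBH5.

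Within the PRC2 core, the transcript of the catalytic subunit rose and those of its essential partners did not pass the test. EZH2 (ENSG00000106462, chromosome 7 from 148807383 to 148884321) gave 261 and 292 counts in siControl against 439 and 384 in siALKBH5. On the CPM scale the libraries of a group were nearly equal, at 16.2 in both siControl libraries and at 23.5 and 23.3 in siALKBH5, a 1.44-fold rise. The log2 fold change of EZH2 was 0.53 (SE 0.094, adjusted p = 2.89e-05 by edgeR's quasi-likelihood test with Benjamini-Hochberg adjustment), and from 0.53 to 0.54 when 1 library was left out. The pseudogene EZH2P1, a near copy that could take reads of EZH2, had 0 counts in all 4 libraries.

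EED (ENSG00000074266, chromosome 11 from 86244544 to 86278813), the subunit that binds trimethylated H3 lysine 27, had 361 and 470 counts in siControl against 415 and 369 in siALKBH5. Its levels of 22.4 and 26.1 CPM in siControl and 22.2 and 22.4 CPM in siALKBH5 overlapped. For EED the log2 fold change was -0.12 (SE 0.090, adjusted p = 0.303 by edgeR's quasi-likelihood test with Benjamini-Hochberg adjustment), with a 95% interval from -0.30 to 0.052. It was -0.0063 without siControl replicate 2 and -0.22 without siControl replicate 1. Of the exonic bases of EED, 66 (0.941%) are shared with MIR6755.

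SUZ12 (ENSG00000178691, chromosome 17 from 31937018 to 32001045), the scaffold of the complex, had 702 and 743 counts in siControl against 818 and 719 in siALKBH5. Scaled for depth these were 43.6 and 41.3 CPM against 43.8 and 43.7 CPM, which are nearly the same levels. The log2 fold change of SUZ12 was 0.045 (SE 0.065, adjusted p = 0.634 by edgeR's quasi-likelihood test with Benjamini-Hochberg adjustment), with a 95% interval from -0.082 to 0.17. The transcribed pseudogene SUZ12P1 had 96 and 84 counts in siControl against 78 and 66 in siALKBH5. Reads could be split between this near copy and SUZ12, so the value of SUZ12 is uncertain to that extent.

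**Figure D2:**
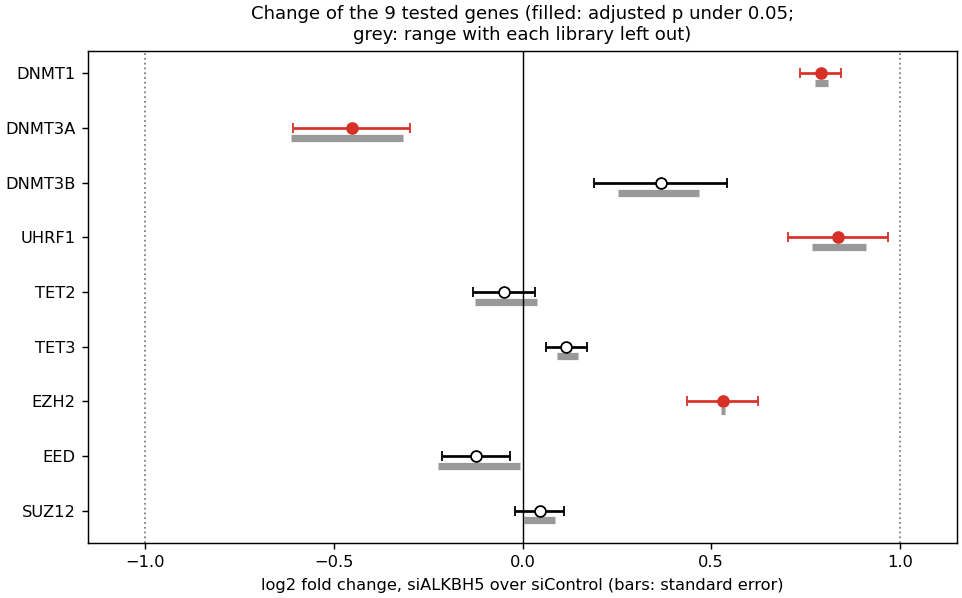
Log2 fold change of siALKBH5 over siControl for the 9 tested genes, with bars of 1 SE, filled red points for genes called at an adjusted p under 0.05, and grey bands for the range when 1 library at a time is left out. DNMT1 at 0.79, UHRF1 at 0.84 and EZH2 at 0.53 lie to the right of 0 with bands that stay there, DNMT3A at -0.45 has a band from -0.61 to -0.32, and none reaches the dotted lines at 1 in size.

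Among transcripts of the PRC2 core, the share of EZH2 was higher in siALKBH5 than in siControl, and the protein subunits were not measured. EZH2 was 26.7% and 26.4% of the summed per-length level of EZH2, EED and SUZ12 in siControl and 34.5% and 34.3% in siALKBH5. Its ratio to SUZ12 went from 0.538 and 0.569 to 0.777 and 0.773, a log2 difference of 0.49. Its ratio to EED went from 1.12 and 0.964 to 1.64 and 1.61, a log2 difference of 0.65. EZH1, the paralog that can replace EZH2 in PRC2 and is known for non-dividing cells, had 1043 and 1254 counts in siControl against 1051 and 1047 in siALKBH5. The per-length ratio of EZH2 to EZH1 was 0.387 and 0.360 in siControl and 0.645 and 0.567 in siALKBH5, so EZH1 stayed the more abundant transcript in every library. That log2 difference was 0.70. The groups did not overlap for any of these 3 ratios, and each had the smallest p the exact two-sided permutation test allows, 0.333. In all, 7 ratios were compared and none could pass 0.05 in this design.

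**Figure D3:**
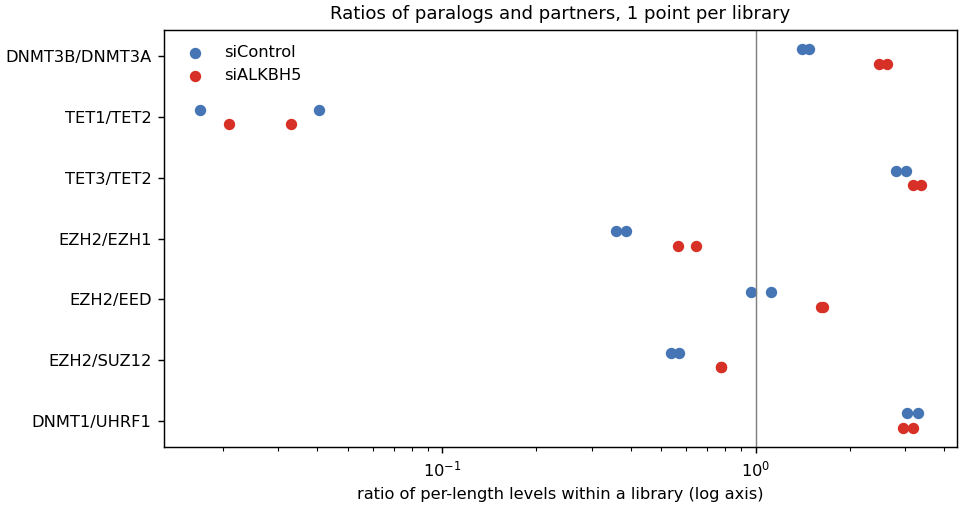
Ratio of the per-length levels of 2 genes within each library, on a log axis, with siControl in blue and siALKBH5 in red. The siALKBH5 libraries lie to the right for DNMT3B/DNMT3A, TET3/TET2, EZH2/EZH1, EZH2/EED and EZH2/SUZ12, and overlap with siControl for TET1/TET2 and DNMT1/UHRF1.

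Ordered by level per length, SUZ12 was the highest of the 10 genes in siControl and DNMT1 in siALKBH5. In siControl, SUZ12 had 6.48 ± 0.246 FPKM (SD, n = 2), followed by TET3 at 4.87 ± 0.140 and DNMT1 at 4.63 ± 0.0431. EZH2 at 3.59 ± 0.00477 and EED at 3.46 ± 0.375 came next, and these neighbours did not differ beyond the spread of their libraries. TET2 at 1.67 ± 0.136, UHRF1 at 1.46 ± 0.0979, DNMT3B at 1.02 ± 0.0613, DNMT3A at 0.706 ± 0.0171 and TET1 at 0.0493 ± 0.0319 FPKM completed the order. In siALKBH5, DNMT1 stood highest, at 7.90 and 8.10 FPKM in the 2 libraries, above SUZ12 at 6.68 ± 0.0113, TET3 at 5.29 ± 0.0562 (SD, n = 2) and EZH2 at 5.18 ± 0.0266. UHRF1 at 2.61 ± 0.179 moved above TET2 at 1.62 ± 0.0482, whereas EED, DNMT3B, DNMT3A and TET1 kept their places at 3.18 ± 0.0205, 1.30 ± 0.136, 0.513 ± 0.0747 and 0.0435 ± 0.0126 FPKM. Neighbouring genes did not overlap in siALKBH5. The listed gene length counts all annotated exons, so a gene with long exons that these cells do not use has a lower value per length.

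**Figure D4:**
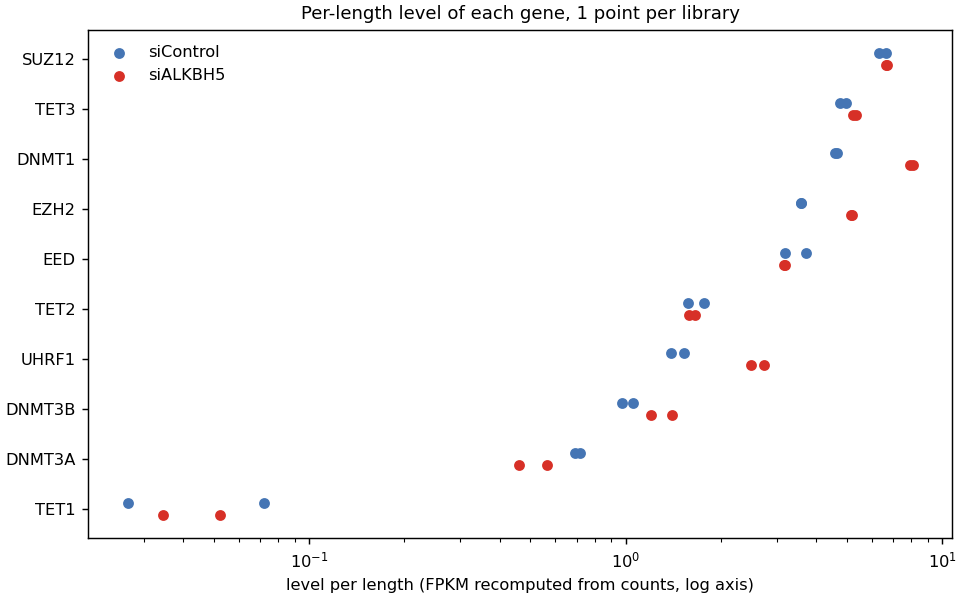
Level per length of the 10 genes in FPKM recomputed from the counts, on a log axis, with 1 point per library (siControl blue, siALKBH5 red) and genes in the order of siControl. DNMT1, UHRF1 and EZH2 shift to the right in siALKBH5, and TET1 lies far to the left of the others in both groups.

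Over the 4 libraries, the genes whose pattern was closest to DNMT1 among 13625 genes with a mean of at least 1 CPM were MCM7, NCAPD2 and LY6E, with root mean square differences of 0.0075, 0.011 and 0.013 on the centred log2 CPM scale. For EZH2 they were SKA2, LSM4 and NUF2, at 0.0078, 0.0084 and 0.010. For UHRF1 they were CKAP2L, LINC00346 and PXMP2, at 0.026, 0.026 and 0.027. MCM7 is a subunit of the replicative helicase, NCAPD2 a condensin subunit, and SKA2 and NUF2 act at kinetochores. Of all these genes, only MCM7 was in the lists of G1/S and G2/M genes used below. With 4 libraries in 2 groups, this likeness mostly says that the log2 fold changes are nearly equal, and many genes share them.

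Genes of the cell cycle moved with DNMT1, UHRF1 and EZH2. Among all genes tested, 19.3% were higher and 17.3% were lower. Of 20 G1/S genes, 16 were higher and 1, UNG, was lower, with a median log2 fold change of 0.72. Of 12 G2/M genes, all 12 were higher, with a median of 0.81. The replication factor CDC45 had 70 and 63 counts in siControl against 279 and 258 in siALKBH5, with a log2 fold change of 1.97. CDC6, which loads the helicase, had 246 and 257 counts in siControl against 627 and 564 in siALKBH5, and the thymidylate synthase TYMS had a log2 fold change of 1.04. Among G2/M genes, the kinetochore motor CENPE and the mitotic kinases PLK1 and AURKB had log2 fold changes of 1.04, 1.00 and 0.96. The summed level of the G1/S genes was 727 and 735 CPM in siControl and 1041 and 1031 CPM in siALKBH5, and that of the G2/M genes 1237 and 1236 CPM against 2140 and 2133 CPM. UNG, a uracil glycosylase of base excision repair, had a log2 fold change of -0.22 and lost its call with DESeq2 and without siControl replicate 2. Of 9 keratinocyte markers, 4 were higher and 4 lower, with a median log2 fold change of 0.018. The basal keratin KRT5 rose by 0.68 on the log2 scale, KRT6A by 0.63, KRT14 by 0.22 and SFN by 0.22. The lower markers were TP63 at -0.091, KRT17 at -0.076, ITGA6 at -0.070 and ITGB4 at -0.058. The part of either group in the rise of DNMT1, UHRF1 and EZH2 was not tested. The paper reports no significant change of HaCaT proliferation or cell cycle after ALKBH5 knockdown, by assays of cells and not of RNA.

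Among 13 partners of the DNA methyltransferases, 10 were tested, 7 were higher and 2 were lower, with a median log2 fold change of 0.21, beside 19.3% higher and 17.3% lower among all genes. CDCA7, which with HELLS forms a remodeller that DNA methylation needs in heterochromatin, had 113 and 121 counts in siControl against 271 and 208 in siALKBH5. Its log2 fold change was 0.99 (SE 0.14, adjusted p = 4.18e-07 by edgeR's quasi-likelihood test with Benjamini-Hochberg adjustment). HELLS and CDCA7L each had a log2 fold change of 0.59. MAT2A, the enzyme that makes the methyl donor S-adenosylmethionine, had 1495 and 1662 counts in siControl against 1198 and 1161 in siALKBH5 and fell by 0.46 on the log2 scale. UHRF2, the paralog of UHRF1, had a log2 fold change of -0.35, the opposite sign to UHRF1, and lost its call without siControl replicate 1 (-0.21). PCNA, the sliding clamp of replication that also stands among the G1/S genes, and AHCY, which clears the product of methyl transfer, were among the higher genes. The germline partners DNMT3L, DPPA3 and ZFP57 had 0 counts in all 4 libraries.

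Of 8 readers of methylated CpG, 1 was higher and 1 was lower, beside 36.6% of all genes called in either direction, and their median log2 fold change was -0.048. The number lower was 3 with library size as the only scaling and 2 with the replicate block or without siControl replicate 1. The number higher was 0 with DESeq2 or without siControl replicate 2. ZBTB33 (Kaiso) had a log2 fold change of -0.26, and MBD2 of 0.11, which lost its call with DESeq2 and without siControl replicate 2. MBD1, MBD3, MBD4, ZBTB4 and ZBTB38 did not pass the test.

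Genes that act with the TET enzymes went both ways. Of 13 listed, 12 were tested, 3 were higher and 3 were lower, with a median log2 fold change of 0.012. Among all genes tested, 19.3% were higher and 17.3% were lower. NEIL1 and TDG, glycosylases of the base excision step that follows oxidation, had log2 fold changes of -0.87 and -0.41. OGT, a glycosyltransferase that binds TET2 and TET3, had a log2 fold change of -0.25. IDH2 and IDH1, which make the TET cofactor 2-oxoglutarate, had log2 fold changes of 0.69 and 0.11, and the CXXC zinc finger gene CXXC5 of 0.16.

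Of the 11 accessory genes of PRC2, with EZH1 among them, 10 were tested, and their median log2 fold change was -0.018. Of these, 3 were higher and 3 were lower, beside 19.3% higher and 17.3% lower among all genes. PHF19, a Polycomb-like protein that brings PRC2 to chromatin, had 601 and 658 counts in siControl against 1171 and 926 in siALKBH5, so that the groups did not overlap. Its log2 fold change was 0.69 (SE 0.065, adjusted p = 1.5e-10 by edgeR's quasi-likelihood test with Benjamini-Hochberg adjustment), the largest of this list. Its relative PHF1 had a log2 fold change of 0.31 and MTF2, the remaining Polycomb-like gene, of -0.14, which was not called. The histone-binding subunits RBBP7 and RBBP4 had log2 fold changes of 0.18 and -0.21. AEBP2 at -0.18 and EZH1 at -0.17 lost their calls with DESeq2. RBBP7 lost its call without siALKBH5 replicate 2 (0.13), PHF1 without siControl replicate 1 (0.20) and RBBP4 without the same library (-0.14). EZH1 also lost it without siALKBH5 replicate 1 (-0.079) and without siControl replicate 2 (-0.11), and AEBP2 did with any 1 of the 4 libraries left out.

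Of 19 genes of PRC1, the complex that ubiquitinates histone H2A, 1 was higher and 2 were lower, with a median log2 fold change of -0.031. The shares among all genes tested were 19.3% higher and 17.3% lower. CBX6 had a log2 fold change of 0.25, BMI1 of -0.31 and RYBP of -0.21. BMI1 and RYBP lost their calls with DESeq2, without siControl replicate 2 (-0.21 and -0.16) and without siALKBH5 replicate 2 (-0.27 and -0.15). Of the 6 erasers of H3 lysine 27 methylation and of H2A ubiquitination, 5 were tested. ASXL1 at 0.11 was called higher and KDM6B, a histone demethylase, at -0.14 was called lower, and both lost their calls with DESeq2. Left out in turn, each of the 4 libraries ended the call of ASXL1, and siControl replicate 1 or siALKBH5 replicate 2 ended that of KDM6B (-0.095 and -0.096).

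**Figure D5:**
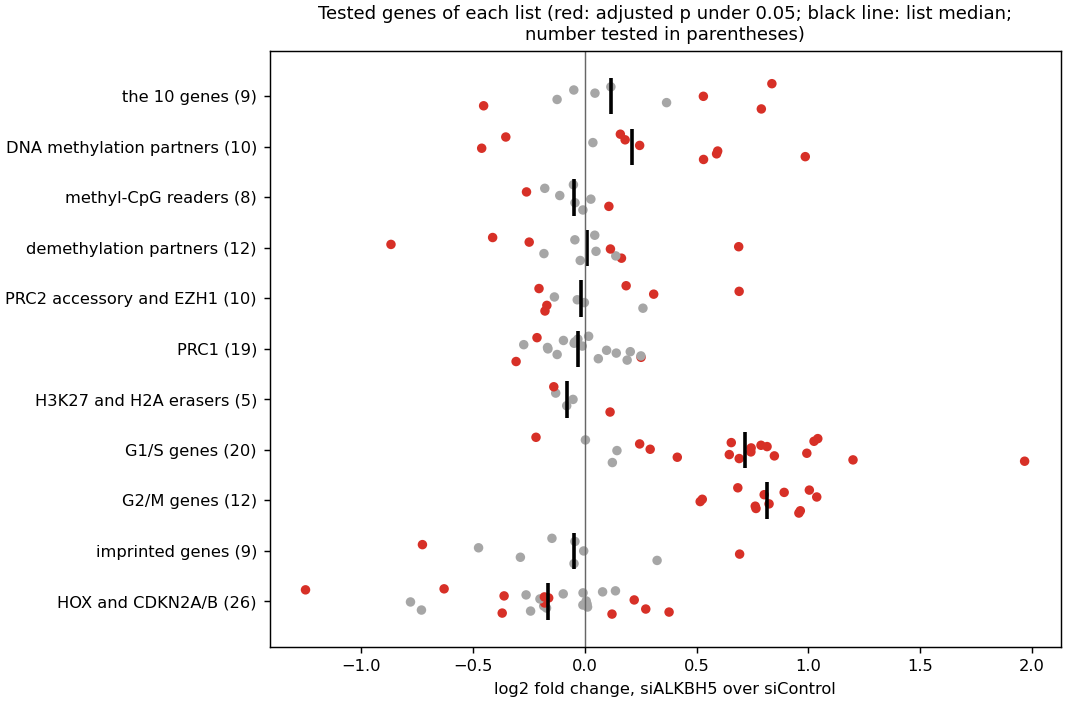
Log2 fold change of siALKBH5 over siControl for every tested gene of each list, with red points for an adjusted p under 0.05, grey points for the others and a black line at the list median. The G1/S and G2/M genes lie mostly to the right, with medians of 0.72 and 0.81, the 10 genes are spread from -0.45 to 0.84, and the methyl-CpG readers, PRC1 and the erasers lie close to 0.

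Genes that DNA methylation or PRC2 are known to hold silent were read as well, although methylation of DNA or of histones was not measured in these libraries. The 20 germline genes known to be silenced by DNA methylation, among them DAZL, DDX4, MAEL and the MAGE genes, stayed near 0. Of these, 15 had 0 counts in all 4 libraries, which allows up to 0.186 CPM in the smallest library (3 counts, counting error only), and 0 passed the expression filter. Their summed level was 0.248 and 0.445 CPM in siControl and 0.482 and 0.547 CPM in siALKBH5, which is too low for a comparison. SYCP3, with 3 and 3 counts in siControl against 5 and 4 in siALKBH5, had the highest sum of the 20.

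Of 16 listed imprinted genes, with IGF2 entered under 2 identifiers, 9 were tested, 1 was higher and 1 was lower. Among all genes tested, 19.3% were higher and 17.3% were lower. KCNQ1OT1, a long RNA antisense to KCNQ1, had 46 and 67 counts in siControl against 102 and 86 in siALKBH5, with a log2 fold change of 0.69. Whether strand was used in counting is not stated, so reads of KCNQ1 and KCNQ1OT1 cannot be told apart. NNAT had 42 and 50 counts in siControl against 27 and 30 in siALKBH5, with a log2 fold change of -0.73. Both lost their calls with DESeq2 and without siControl replicate 1 (0.52 and -0.77), and NNAT did without any other library as well. H19, with 265 and 429 counts in siControl against 293 and 289 in siALKBH5, and CDKN1C, with a log2 fold change of -0.049, did not pass the test.

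The HOX genes with CDKN2A and CDKN2B, which are common targets of Polycomb repression, comprised 42 entries, of which 26 were tested. Beside 19.3% higher and 17.3% lower among all genes, 4 of these were higher and 7 were lower. These counts rest on the full set of libraries and on the test. With DESeq2 1 was higher and 3 were lower. The number higher was 2 without siALKBH5 replicate 2 and 1 without any other library, and the number lower was 3 without siControl replicate 1 or siALKBH5 replicate 2. The median log2 fold change was -0.17. CDKN2B, an inhibitor of G1 kinases, had 990 and 1108 counts in siControl against 942 and 733 in siALKBH5, and fell by 0.37 on the log2 scale. HOXD8 had 24 and 27 counts in siControl against 14 and 8 in siALKBH5, with a log2 fold change of -1.25, and HOXD9 had a log2 fold change of -0.63. HOXD8 lost its call without siControl replicate 1, siControl replicate 2 or siALKBH5 replicate 2 (-1.25, -1.25 and -0.99), and HOXD9 without siControl replicate 1 (-0.39). HOXA2 at 0.27 and HOXC10 at 0.22 were higher. HOXA2 lost its call with DESeq2, without siControl replicate 1 (0.26), without siControl replicate 2 (0.29) and without siALKBH5 replicate 2 (0.12). HOXC10 lost its call without siALKBH5 replicate 1 (0.14) and without siControl replicate 2 (0.18). CDKN2A had a log2 fold change of 0.12 and was also among the higher genes.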

How the data were processed

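RNA-seq counts of 4 HaCaT libraries were analysed. Per the paper's methods, mRNA was captured on poly-T beads and sequenced by NovaSeq. The authors deposited 1 table for each replicate, with raw counts and FPKM per gene. The submitters' processing notes name HISAT2 2.0.5, featureCounts 1.5.0-p3, DESeq2 1.20.0, CASAVA and hg38 without their roles. Whether counting used strand is not given in the sources used here. In each table the deposited FPKM carry that table's own scaling, and they served only to check the order of levels. The deposited fold changes and p-values, which set 1 library against 1, were not used. No column of sample values was left unmapped (0 columns). Gene coordinates of the 10 genes are those of GENCODE 29.

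A single quasi-likelihood fit (edgeR 4.0.16 with R 4.3.3, TMM scaling, filterByExpr, glmQLFTest) compared siALKBH5 with siControl over the counts of the 4 libraries and had no other term. P-values of 15075 genes were adjusted by Benjamini-Hochberg, and edgeR estimated a common biological coefficient of variation of 0.0253. CPM were scaled by TMM, and FPKM were recomputed as CPM per kilobase of the deposited gene length. Ratios and shares within a library use these FPKM. The alternatives were DESeq2 1.42.0, other scalings and filters, a replicate block and each library left out. The steps were tested on simulated data. Each library counted as 1 replicate in the test. Library pairs of a group differed by more than sampling noise (chi-square per degree of freedom 1.74 and 1.85). This check cannot tell separate cultures from technical libraries of 1 culture. The counts carry no molecular identifiers, so the intervals cover no error of amplification. The 10 genes and the gene lists were chosen with earlier results of these data known. From each list the text names up to 3 higher and 3 lower called genes with the largest change, a mean of at least 1 CPM and the same direction in both replicates, and some results are not reported here. AHCY, PCNA, MTF2, CDKN2A, H19, CDKN1C, SYCP3 and the other germline genes, and the partners at 0 counts, were named after their values were seen. So were the readers that were not called, the genes closest to UHRF1 and the cell type markers.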

Additional observations from a re-analysis of the deposited data

How the results depend on the processing

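Under each alternative, DNMT1, UHRF1 and EZH2 kept their direction and their call. Of 90 alternative values for the log2 fold changes of the 9 tested genes, 87 kept their side of the threshold and 3, all for DNMT3A, lost the call. With DESeq2, 0 of the 10 genes were called lower (DNMT3A at -0.45), 1444 of all genes were lower against 2610, and 10 genes of the lists were lower against 21. DESeq2 gave no adjusted p to 14566 genes, and the cause of the difference was not tested. When 1 library at a time was left out, the number of the 10 genes called lower ranged from 0 to 1 and the log2 fold change of DNMT3A from -0.61 to -0.32. The log2 difference of EZH2/EED ranged from 0.54 to 0.76 and that of EZH2/SUZ12 from 0.45 to 0.53. By the deposited FPKM of replicate 2, EED ranked 4 and EZH2 ranked 5 in siControl, the reverse of the order of means. Among 40 other named genes, DESeq2 ended 12 calls, leaving out 1 library ended from 6 to 12, and 0 reversed. Counts of the other small lists moved too. The number lower among PRC2 accessory genes was 3, and 1 with DESeq2 or without any library but siALKBH5 replicate 2. Of the PRC1 genes 0 were lower with DESeq2 or without siControl replicate 2, and 2 were higher without siALKBH5 replicate 1 or siControl replicate 2. With DESeq2, 0 imprinted genes and 0 erasers were called. Without a filter on low counts AEBP2, RYBP and KDM6B lost their calls, and with library size as the only scaling ASXL1 did. With the replicate number as a block, 5922 genes were called, with all 5523 of the test without the block among them, and the call of each of the 10 genes stayed as it was. The numbers gave no sign of pairing (r = 0.066 across 13626 genes between the replicate differences of the 2 groups). Depth limits TET1, and 2 libraries a group limit the ratios, whose exact p cannot fall below 0.333.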
